A study of Homo sapiens with 9 samples.

Results

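The comparison described here is that of CHD9 hairpin 2 with the GFP hairpin in 22Rv1 cells. Its 6 libraries were taken by their titles, 3 of shGFP and 3 of shCHD9_2, out of 9 libraries in the series. 22Rv1 is an established cell line of human prostate cancer that was derived from a xenograft. In the control group the short hairpin RNA targeted GFP, a jellyfish gene that human cells lack, and in the knockdown group it targeted CHD9. All libraries are labelled as wild type in genotype, with GFP or CHD9 knockdown as the treatment, and the medium was RPMI with fetal bovine serum throughout. The 3 libraries of a different CHD9 hairpin, shCHD9_1 (hairpin 1), enter only where they are named. Hairpin sequences and the time after delivery were not used here. Nothing in the labels names the replicates as separate cultures, and a p-value here therefore reflects library-to-library spread that may be technical. The series is about METTL3-based editing of RNA methylation, and the submitters' design asks how gene expression differs between control and CHD9 knockdown.

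CHD9 belongs to the chromodomain helicase DNA-binding proteins, which use ATP to move or evict nucleosomes. It is most like CHD6, CHD7 and CHD8, and it has been described as a coactivator of nuclear receptors and as a remodeller in bone-forming cells. Prostate luminal cells depend on androgen, which switches on secreted proteases such as the kallikreins.

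The 6 libraries held 18911142 to 31968602 counts, and 15896 to 17375 genes reached 10 counts in a library. Libraries of the same group differed by 1.80 to 2.87 in chi-square per degree of freedom and libraries of different groups by 13.3 to 18.0, so all 6 were kept as separate samples. Every one of 17 prostate luminal markers was detected. Of the markers of other cell types, the basal keratin KRT5, the neuroendocrine granin CHGA, the fibroblast genes POSTN and FAP, the endothelial genes CDH5 and KDR and the leukocyte genes CD3E, MS4A1 and NKG7 had no count in any of the 6 libraries. The summed fibroblast markers made up 9.04 to 9.76 CPM (counts scaled to the library's total count, the field's counts-per-million unit) in shGFP and 10.8 to 13.7 with hairpin 2, most of it COL1A1. The summed leukocyte markers made up 0.793 to 1.30 CPM in shGFP and 1.197 to 1.85 with hairpin 2. Other basal and neuroendocrine markers were expressed. The summed basal markers made up 62.8 to 65.6 CPM in shGFP and 67.2 to 73.3 with hairpin 2. The summed neuroendocrine markers made up 339.5 to 347.9 CPM in shGFP and 366.2 to 376.3 with hairpin 2, most of it ENO2.

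CHD9 mRNA was slightly lower with hairpin 2. CHD9 (ENSG00000177200.17, chromosome 16, 53055033 to 53329150, plus strand, GRCh38) stood at 22.9, 20.7 and 23.3 CPM, from here on with totals scaled by TMM, in the shGFP libraries. It stood at 18.5, 19.0 and 19.5 CPM in the hairpin 2 libraries. The groups did not overlap, and the means were 22.3 ± 1.40 and 19.0 ± 0.479 CPM (SD, n = 3 each). The log2 fold change was -0.23 (SE 0.07, adjusted p = 0.0062 by edgeR's quasi-likelihood test, adjusted after Benjamini and Hochberg). Without shGFP replicate 3 the call was lost (log2 fold change -0.20, edgeR adjusted p = 0.061). With hairpin 1 the log2 fold change against the same shGFP libraries was -0.52, and the direct difference of hairpin 2 minus hairpin 1 was 0.28 (SE 0.07, edgeR adjusted p = 0.0020).

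Throughout, a gene is called at an edgeR adjusted p under 0.05, a rule that 35.4% of all 16579 tested genes met. Of the 10 CHD genes, 3 were called with hairpin 2. CHD1, a paralogue of CHD9 whose chromodomains bind a histone mark of active promoters, was lower with hairpin 2. It went from 66.5, 62.0 and 65.3 CPM in shGFP to 51.1, 50.8 and 47.1 CPM, with no overlap (log2 fold change -0.38, SE 0.05, edgeR adjusted p = 3.8e-10). CHD5, a subunit of NuRD-type complexes in neurons, rose from 15.8 to 18.5 CPM (log2 fold change 0.22, SE 0.08). The CHD5 call was lost without shGFP replicate 1, shGFP replicate 3 or hairpin 2 replicate 3, with the DESeq2 Wald test and once GC content and length were corrected for (log2 fold changes 0.12 to 0.22). The other 7 members were not called, and those most like CHD9 had log2 fold changes of 0.04 (CHD6), 0.07 (CHD7) and -0.03 (CHD8, called at -0.12 with that correction).

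Across the transcriptome, 5875 of the 16579 tested genes were called with hairpin 2, 2881 higher (17.4% of those tested) and 2994 lower (18.1%). Most of these changes were modest, with a median absolute log2 fold change of 0.27 among called genes. A change over 1.5-fold was seen in 1018 called genes and one over 2-fold in 373, of which 177 were higher and 196 lower. The share of genes called grew with the level, from 9.53% of genes under 1 CPM to 53.5% of genes at 100 CPM or more, where the median standard error was 0.03 on the log2 scale. The median log2 fold change of all genes was 0.003. The shares of 17.4% higher and 18.1% lower stand beside every list count against shGFP below, and counts near them describe no trait of a list. Replicates varied by 2.97%, which edgeR names the common biological coefficient of variation. This spread may be technical, as the labels do not name the replicates as separate cultures.

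**Figure D1:**
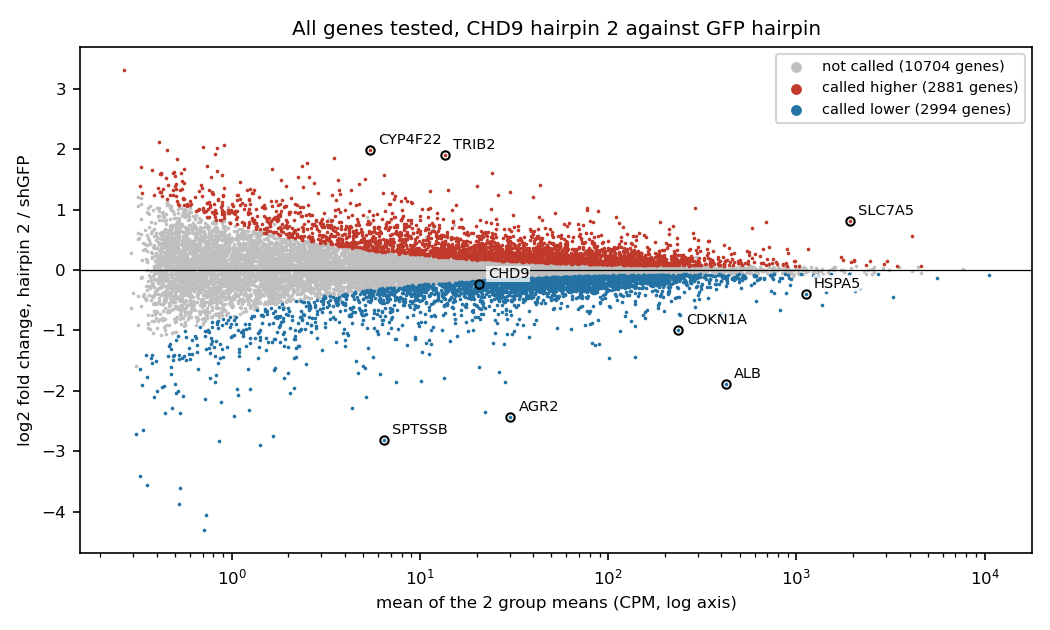
Each point is 1 of the 16579 tested genes, with the mean of both group means in CPM on a log axis and the log2 fold change of hairpin 2 over shGFP on the vertical axis. Red marks 2881 genes called higher, blue 2994 called lower and grey the rest, and CHD9 lies near 0 (-0.23) while AGR2, SPTSSB and ALB lie far below.

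The largest falls included those of SPTSSB and AGR2. SPTSSB (ENSG00000196542.8, chromosome 3, 161344792 to 161372880, minus strand), a small subunit of serine palmitoyltransferase that starts sphingolipid synthesis, stood at 10.5, 11.6 and 11.8 CPM in shGFP and at 1.36, 1.62 and 1.86 CPM with hairpin 2. Its log2 fold change was -2.82 (SE 0.14, edgeR adjusted p = 7.0e-26). That was the lowest among ranked called genes of at least 5 CPM whose groups do not overlap. Ranking passed over clone names, bare identifiers, pseudogenes and noncoding genes with systematic names. AGR2 (ENSG00000106541.12, chromosome 7, 16791811 to 16833433, minus strand), a protein disulfide isomerase that folds secreted proteins such as mucins, had 50.7, 51.6 and 50.1 CPM in shGFP and 9.81, 8.84 and 9.77 CPM with hairpin 2 (log2 fold change -2.43, SE 0.07). For both genes the highest hairpin 2 library was far below the lowest shGFP library.

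ALB, which encodes albumin (ENSG00000163631.17, chromosome 4, 73397114 to 73421412, plus strand), was the most abundant gene of this set, at 678, 662 and 657 CPM in shGFP and 180, 179 and 182 CPM with hairpin 2 (log2 fold change -1.88, SE 0.03). TRGC1, a T cell receptor gamma constant gene that prostate cells are known to transcribe, fell by 2.36 on the log2 scale, with a near-identical copy that makes its counts uncertain. TNFRSF11B, the decoy receptor osteoprotegerin, fell by 2.28, the actin-severing gene SCIN by 2.09 and the protease inhibitor gene A2M by 1.85. The proteoglycan genes SPOCK2 and VCAN fell by 1.85 and 1.83, the adhesion gene FLRT3 by 1.79 and the glucuronosyltransferase gene UGT2B11 by 1.72. The standard errors of these 8 genes were 0.07 to 0.17.

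The largest rises included those of CYP4F22 and TRIB2. CYP4F22 (ENSG00000171954.13, chromosome 19, 15508493 to 15552317, plus strand), an omega-hydroxylase of very long fatty acids for skin ceramides, stood at 2.07, 2.18 and 2.27 CPM in shGFP and at 9.21, 8.28 and 8.48 CPM with hairpin 2 (log2 fold change 1.98, SE 0.14, edgeR adjusted p = 1.3e-18). TRIB2 (ENSG00000071575.11, chromosome 2, 12716889 to 12742734, plus strand), a pseudokinase gene, went from 6.20, 5.30 and 5.77 CPM to 21.6, 21.2 and 21.5 CPM (log2 fold change 1.90, SE 0.09). The log2 fold change was 1.85 for the laminin-binding integrin gene ITGA6, 1.61 for OAF and 1.57 for CYP1A2, a P450 that the aryl hydrocarbon receptor induces. CAMKV, a kinase-like gene of neurons, rose by 1.51, ELFN2 by 1.48, the synaptic scaffold gene SHANK1 by 1.42 and ATCAY, mutated in an ataxia, by 1.33. The protein kinase C gene PRKCA and the transcription factor gene SOX8 rose by 1.39 and 1.33. The summed neuroendocrine markers made up 339.5 to 347.9 CPM of the unscaled total in shGFP and 366.2 to 376.3 with hairpin 2, and their part in the rises of CAMKV and SHANK1 was not tested. Groups that do not overlap were part of how these genes were chosen, and 44.4% of all tested genes had them.

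**Figure D2:**
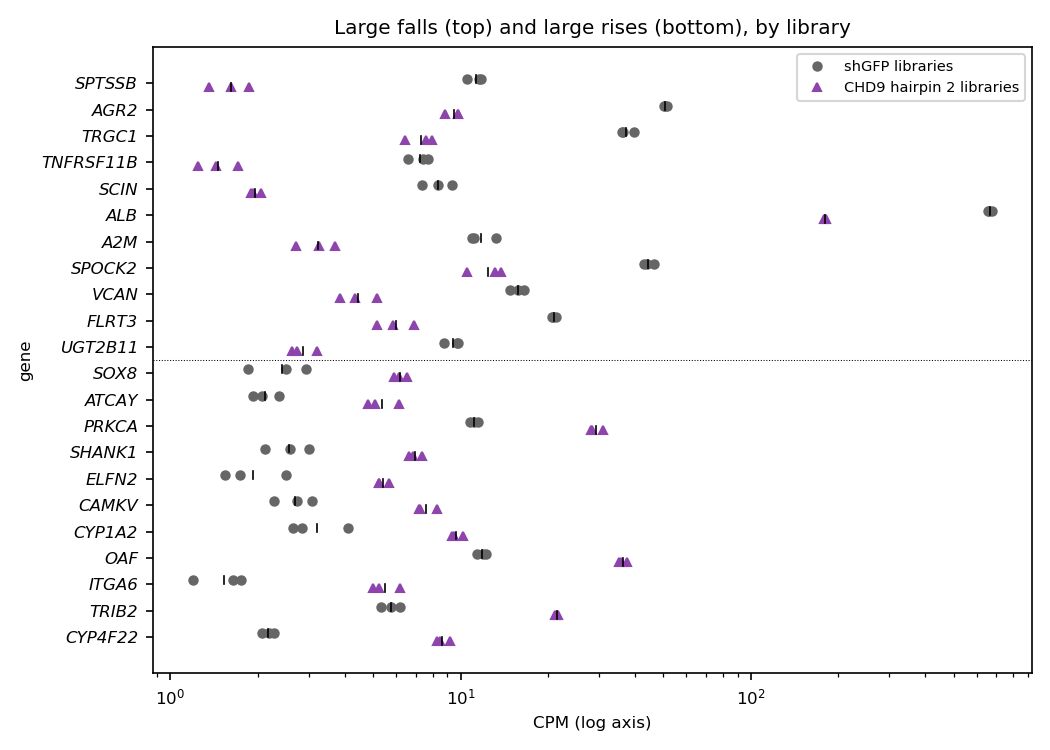
CPM on a log axis in each library for 11 of the 12 largest falls and 11 of the 12 largest rises among ranked called genes of at least 5 CPM whose groups do not overlap, with grey circles for shGFP, purple triangles for hairpin 2 and short bars for the group means. ALB stands at 657 to 678 CPM in shGFP and 179 to 182 with hairpin 2, and TRIB2 at 5.30 to 6.20 and 21.2 to 21.6.

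Called genes were also ranked by change in absolute CPM, with clone names, bare identifiers, pseudogenes and systematic noncoding names passed over as above. The largest losses included CCND1, cyclin D1, from 3727, 3760 and 3745 to 2774, 2752 and 2763 CPM (log2 fold change -0.44, SE 0.02). MT-CO1, the amino acid transporter gene SLC38A2, the desaturase gene SCD and the chaperone gene HSP90B1 completed the 5 largest losses, with log2 fold changes of -0.08, -0.58, -0.14 and -0.35. The 5 largest gains were in the amino acid transporter gene SLC7A5, the mitochondrial ribosomal RNA gene MT-RNR2, the transcription factor gene NFIX (507 to 875 CPM), the elongation factor gene EEF2 (2887 to 3210 CPM) and SLC3A2.

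Chaperones of the endoplasmic reticulum, the first site of folding for secreted proteins, were lower almost throughout. Of 23 tested members of the chaperone and unfolded protein response list, 21 fell and none rose, against 18.1% of all genes called lower, and the list median was -0.21 against 0.003 for all genes. In bulk RNA, fewer cells of a type and less RNA per cell cannot be told apart. Among the chaperones, HSPA5 (BiP, ENSG00000044574.8, chromosome 9, 125234853 to 125241330, minus strand) stood at 1268, 1266 and 1289 CPM in shGFP and at 987, 967 and 953 CPM with hairpin 2 (log2 fold change -0.39, SE 0.03, edgeR adjusted p = 3.9e-21). HSP90B1, the endoplasmic HSP90, went from 2304, 2242 and 2360 CPM to 1814, 1798 and 1820 CPM, a lower level in each hairpin 2 library. The disulfide isomerase gene PDIA4 fell by 0.37, the calcium-binding lectin gene CALR by 0.31 and the co-chaperone gene DNAJB9 by 0.81, the lowest value of the list, from 18.0, 20.1 and 20.1 CPM to 10.1, 11.2 and 12.2 CPM. Of the regulators, the transcription factor gene XBP1 fell by 0.21. The 2 members not called were CANX, the membrane lectin calnexin (log2 fold change -0.00), and ERN1, the sensor IRE1 (0.07).

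Many of these chaperones carry the endoplasmic reticulum stress response element, at which the factors ATF6 and NF-Y bind. Because the list moved together, its promoters were searched on both strands for the letters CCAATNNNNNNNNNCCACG in the RefSeq window of 250 bases before to 50 after each annotated start (GRCh38.p14). The element was in 27 of 35116 windows (0.0769%) and in the windows of 7 of the 23 list genes that had one. These shares count windows and genes, so they are not directly comparable. The matches of 3 genes that fell and of CANX, which was not called, are shown 5′ to 3′ on the gene's strand, with the matched letters in capitals and, for HSP90B1, both of its matches.
HSPA5, chr9:125241351-125241449, minus strand: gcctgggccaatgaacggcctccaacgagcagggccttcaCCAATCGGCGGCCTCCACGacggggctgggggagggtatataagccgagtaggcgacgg
CALR, chr19:12938359-12938442, plus strand: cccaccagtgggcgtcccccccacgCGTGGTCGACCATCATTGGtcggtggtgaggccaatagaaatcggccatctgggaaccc
HSP90B1, chr12:103930211-103930239, plus strand: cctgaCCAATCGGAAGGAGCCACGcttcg
HSP90B1, chr12:103930316-103930344, plus strand: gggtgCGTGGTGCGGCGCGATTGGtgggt
CANX, chr5:179698773-179698801, plus strand: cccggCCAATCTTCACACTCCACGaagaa

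Of the 7 list genes with the element, 6 fell (HSPA5, HSP90B1, CALR, PDIA6, CRELD2 and XBP1), with a median log2 fold change of -0.23 over all 7. Of the 15 tested list genes with a window but without these letters, 14 fell, with a median of -0.18. The difference between the 2 sets was not tested.

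Cholesterol synthesis and uptake genes, most of them targets of the sterol-regulated factor SREBP2, were also lower. Of 26 tested members 20 fell and 1 rose, against 18.1% of all genes called lower, and the list median was -0.24. At the head of the pathway, HMGCS1 went from 216, 216 and 228 CPM to 149, 149 and 154 CPM (log2 fold change -0.54, SE 0.03). Every hairpin 2 library was below every shGFP library. TM7SF2, a sterol reductase gene, fell by 0.42 on the log2 scale and STARD4, a sterol carrier gene, by 0.61. FDPS, which makes farnesyl diphosphate, was the member that rose, from 284 ± 6.99 to 327 ± 5.70 CPM (SD, n = 3 each).

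Targets of p53, the transcription factor that halts the cell cycle or starts apoptosis after damage, were lower. Of 25 tested members 18 fell and 1 rose, against 18.1% of all genes called lower, with a list median of -0.22. The cell cycle inhibitor gene CDKN1A (p21, ENSG00000124762.14, chromosome 6, 36676460 to 36687339, plus strand) went from 310, 318 and 308 CPM in shGFP to 167, 151 and 152 CPM with hairpin 2 (log2 fold change -0.99, SE 0.03, edgeR adjusted p = 4.9e-35). PHLDA3, an inhibitor of AKT, went from 98.2, 103 and 95.5 CPM to 59.9, 59.0 and 61.5 CPM, and PLK2, a polo-like kinase gene, from 25.4, 26.5 and 27.5 CPM to 16.3, 15.7 and 16.02 CPM. All 3 genes were separated by more than the spread within either group. The stress cytokine gene GDF15 fell by 0.61, the death receptor gene TNFRSF10B by 0.36 and the pore-forming apoptosis gene BAX by 0.25. BTG2 and TP53INP1, which restrain growth, fell by 0.33 and 0.27. BBC3, which encodes the apoptosis inducer PUMA, was the member that rose (0.23, SE 0.04). MDM2, whose protein degrades p53, had a log2 fold change of 0.03 and was not called, although it was called after the GC content and length correction (0.07).

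Genes of the ATF4 pathway, through which cells answer a lack of amino acids by importing and making them, were higher. Of 29 tested members 18 rose and 2 fell, against 17.4% of all genes called higher, with a list median of 0.15. Of the transporters, SLC7A5 (ENSG00000103257.9, chromosome 16, 87830023 to 87869488, minus strand), the light chain of the large neutral amino acid carrier, went from 1400, 1431 and 1364 CPM to 2468, 2445 and 2445 CPM (log2 fold change 0.81, SE 0.02, edgeR adjusted p = 1.6e-37). Its heavy chain gene SLC3A2 went from 445, 452 and 438 CPM to 717, 714 and 730 CPM, again with each hairpin 2 library above the shGFP range. The cystine carrier gene SLC7A11 rose from 24.2, 25.0 and 26.3 CPM to 34.2, 37.8 and 39.5 CPM, and the glutamine carrier gene SLC1A5 by 0.33 on the log2 scale. SLC38A2, which also imports neutral amino acids, was 1 of the 2 members that fell.

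Of the enzymes of this list, PHGDH, the first of serine synthesis, went from 52.8, 59.5 and 55.4 CPM to 86.4, 84.3 and 84.5 CPM (log2 fold change 0.60, SE 0.04). The mitochondrial folate genes MTHFD2 and ALDH1L2 rose by 0.46 and 0.44, each with no overlap between the groups. Of the transcription factors, ATF4 itself rose little (0.14, SE 0.03), and CEBPG, which pairs with ATF4 on DNA, went from 55.8, 55.1 and 58.3 CPM to 84.2, 84.1 and 82.4 CPM (log2 fold change 0.57, SE 0.04). GARS1, the glycyl-tRNA synthetase gene, was the other member that fell (-0.12).

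ATF4 and its partners bind the C/EBP-ATF response element, searched here on both strands as TGATGNAA in the same RefSeq windows. It was in 1270 of 35116 windows (3.62%) and in the windows of 10 of 25 list genes that had one. Here too the shares count windows and genes and are not directly comparable. The matches of 2 genes that rose are shown with the matched letters in capitals.
CEBPG, chr19:33374060-33374089, plus strand: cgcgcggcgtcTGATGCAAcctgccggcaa
SLC3A2, chr11:62881725-62881748, plus strand: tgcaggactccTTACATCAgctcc

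Of the 10 list genes with the element 5 rose and 1 fell, with a median log2 fold change of 0.14. Of the 14 tested list genes with a window but without it 8 rose and 1 fell, with a median of 0.12. This difference was not tested either.

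**Figure D3:**
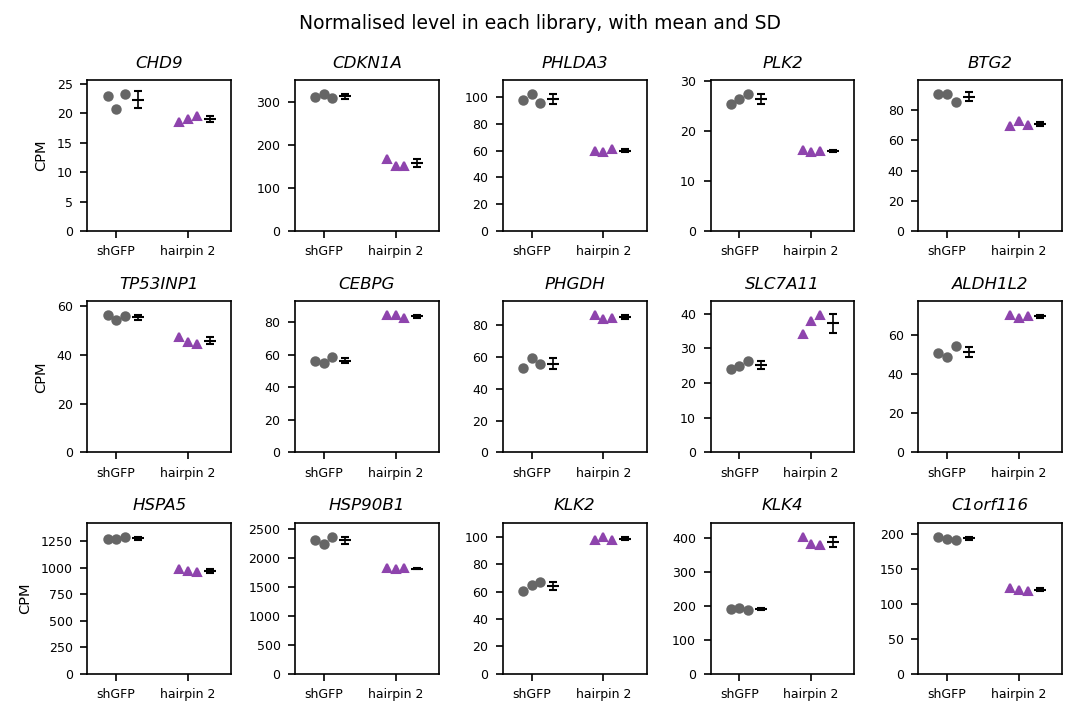
CPM in each library for CHD9 and 14 genes of the p53, ATF4, chaperone and androgen-responsive lists, with grey circles for shGFP, purple triangles for hairpin 2 and the mean with its SD (n = 3) beside each group; every axis starts at 0. CDKN1A lies at 308 to 318 CPM in shGFP and at 151 to 167 with hairpin 2.

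Androgen-responsive genes moved both ways. Of 29 tested members 13 rose and 7 fell, with a list median of 0.04. That median was 0.05 to 0.13 with each of the 6 libraries left out in turn (0.13 without hairpin 2 replicate 3), 0.20 where at least 1 CPM in 3 libraries was required and 0.12 with the GC content and length correction. The kallikrein gene KLK4 went from 192, 193 and 187 CPM to 403, 380 and 378 CPM (log2 fold change 1.02, SE 0.03). KLK2 and KLK3, which encodes prostate-specific antigen, rose by 0.62 and 0.50, and NDRG1, also known from hypoxia, by 0.87. In the other direction C1orf116 went from 196, 193 and 192 CPM to 122, 120 and 118 CPM, and ELL2, an elongation factor gene, fell by 0.50. STEAP4, a metalloreductase gene at 0.490 to 0.654 CPM in shGFP and 0.0311 to 0.0953 CPM with hairpin 2, also fell. TMPRSS2 had a log2 fold change of 0.17 and was not called.

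Of the 17 luminal markers, 5 rose and 6 fell, and 6 were not called, which gives a list median of 0.005. HOXB13, a homeobox gene of prostate identity, rose from 168 ± 2.50 to 254 ± 2.40 CPM, and FOXA1, a pioneer factor that opens chromatin, fell from 462 ± 7.54 to 386 ± 9.43 CPM (SD, n = 3 each). The surface glycoprotein gene CD24 and the keratin gene KRT19 fell by 0.77 and 0.21. The summed level of all 17 markers was 2950 to 2980 CPM of the unscaled total in shGFP and 3081 to 3114 with hairpin 2. Its part in the changes of single targets was not tested.

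Cell cycle genes did not move as a block. Among all genes 17.4% were called higher and 18.1% lower. Calls either way took in 44.9% of genes at 10 to 100 CPM and 53.5% at 100 CPM or more. Counts near these shares describe no trait of a list. Of 38 DNA replication genes 5 rose and 11 fell, with a median of -0.04. The count of 5 became 2 with the DESeq2 Wald test, without shGFP replicate 1 or 2 and without hairpin 2 replicate 2 or 3, 3 without a low-count filter and 8 with the GC content and length correction. RRM2, the ribonucleotide reductase subunit, went from 340, 344 and 345 CPM to 267, 273 and 264 CPM (log2 fold change -0.36, SE 0.03). The cyclin E gene CCNE1 and the helicase loader CDC6 fell by 0.44 and 0.25, and MCM4, of the replicative helicase, rose by 0.11. Of 40 mitosis genes 14 rose and 6 fell, with a median of 0.05, and 19 rose and 3 fell, with a median of 0.08, after the GC content and length correction. ANLN, the scaffold of the contractile ring, went from 82.9, 86.5 and 83.3 CPM to 140, 146 and 147 CPM (log2 fold change 0.78, SE 0.04), and the proliferation marker MKI67 from 324, 324 and 318 to 390, 409 and 408 CPM. CENPE, a kinetochore motor, went the other way, from 99.8, 94.1 and 103 CPM to 59.1, 65.2 and 60.8 CPM, as did the spindle gene HMMR (-0.49). Of 11 tested replication-dependent histone genes, whose transcripts usually end without the poly(A) tail used for selection, 5 fell and none rose. The linker histone gene H1-2 fell by 1.24 and H2BC12 by 0.93, with counts that near-identical histone copies make uncertain.

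Among signalling lists, immediate early and ERK feedback genes had 3 of 26 members higher and 10 lower, with a median of -0.12. The 3 became 5 without shGFP replicate 2 or hairpin 2 replicate 1. For these signalling lists too, the shares over all genes were 17.4% higher and 18.1% lower. At 10 to 100 CPM 44.9% of genes were called either way. SPRY4, a feedback inhibitor of ERK signalling, went from 39.0, 40.9 and 37.5 CPM to 17.5, 19.2 and 20.1 CPM (log2 fold change -1.05, SE 0.06). The phosphatase gene DUSP4 and the early response gene EGR1 fell by 0.70 and 0.23, and MYC rose by 0.25. TGF-beta and BMP genes had 6 of 27 higher and 10 lower. ID2 and ID1, inhibitors of differentiation that BMP signals induce, fell by 0.76 and 0.46, from 155 ± 4.18 to 91.5 ± 3.05 CPM and from 396 ± 7.75 to 287 ± 2.86 CPM (SD, n = 3 each). The activin subunit gene INHBB rose from 6.52 ± 0.142 to 16.1 ± 1.66 CPM (SD, n = 3 each). WNT genes had 7 of 23 higher and 4 lower, with the secreted inhibitor DKK1 at 50.3, 52.7 and 53.1 CPM in shGFP and 24.4, 23.9 and 24.5 CPM with hairpin 2, and the ligand gene WNT7B higher by 0.60.

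Notch pathway genes pass signals between touching cells. Against 17.4% of all genes called higher and 18.1% lower, 10 of 18 tested members rose and none fell, with a median of 0.18. The correction for GC content and length left 6 higher and 3 lower, with a median of 0.11. Of the ligands, JAG2 rose from 78.8, 78.7 and 73.0 CPM to 89.8, 95.9 and 104 CPM. The glycosyltransferase gene LFNG, which tunes the receptors, rose by 0.64, the ubiquitin ligase gene DTX4 by 0.58 and RBPJ, the DNA-binding partner of Notch, by 0.23. The receptor gene NOTCH3 rose by 0.16, but with the correction it was not called (0.03). HES1, the classical target, had 51.3 ± 0.580 and 50.8 ± 1.81 CPM (SD, n = 3 each) and was not called.

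Genes of plasma proteins that the liver usually makes had 8 of 13 tested members lower and 1 higher, with a median of -0.87, the lowest of the 36 lists. ALB and A2M belong to it, and AMBP, the precursor of a plasma protease inhibitor, went from 103, 106 and 102 CPM to 58.2, 52.7 and 58.3 CPM. TTR and CP, which carry thyroid hormone and copper, fell at 1.74 and 3.41 CPM in shGFP (log2 fold changes -2.06 and -1.95). Extracellular matrix genes went both ways, 9 of 26 higher and 6 lower. Beside SPOCK2 and VCAN, the collagen gene COL6A2 rose from 23.3, 24.3 and 24.4 CPM to 52.9, 57.2 and 56.8 CPM, and FN1, fibronectin, from 234, 240 and 230 CPM to 335, 345 and 340 CPM. The part of the fibroblast markers given above, 10 in all, in these values was not tested. Of 14 xenobiotic genes 2 rose and 5 fell. CYP1A1 fell from 34.9 ± 2.76 to 27.2 ± 0.177 CPM while its neighbour CYP1A2 rose, and UGT2B15, which inactivates androgens and has close paralogues that can share reads, fell by 1.44.

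Of 46 tested cytosolic ribosomal protein genes 5 rose and 6 fell, with a median of -0.004. The 6 became 14 without hairpin 2 replicate 1 and 3 without hairpin 2 replicate 2, and the 5 became 9 with limma voom. The GC content and length correction gave 11 higher and 10 lower. RPL22 rose by 0.30, RPL13A rose by 0.16 and RPL12 fell by 0.19, with processed pseudogenes that can share their reads. Of 36 nuclear genes of oxidative phosphorylation 10 rose and 4 fell. The 10 became 4 without shGFP replicate 1, and the 4 that fell became 2 after the correction. Of 15 mitochondrial transcripts 7 rose (4 without shGFP replicate 1) and 1 fell, led by the ribosomal RNAs MT-RNR2 (3271, 3328 and 3379 to 5035, 4945 and 4764 CPM) and MT-RNR1 (log2 fold change 0.37). The libraries were poly(A)-selected, and the part of that selection in the counts of these ribosomal RNAs was not tested. Mitochondrial transcripts took 3.66% to 3.83% of the counts in shGFP libraries and 3.88% to 3.998% in hairpin 2 libraries.

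Genes of the m6A machinery, the subject of the series, had 3 of 20 tested members higher and 11 lower, with a median of -0.08. Over all tested genes the shares were 17.4% and 18.1%. The 11 became 7 without hairpin 2 replicate 2, and the correction gave 5 higher and 7 lower, with a median of -0.05. The methyltransferase gene METTL3 stood at 57.8, 59.9 and 63.9 CPM in shGFP and at 65.5, 63.3 and 65.4 CPM with hairpin 2, groups that overlap (log2 fold change 0.09, edgeR adjusted p = 0.093). It was called without shGFP replicate 3 (0.14) and with the correction (0.16). Its partner gene METTL14 fell by 0.32, the reader gene IGF2BP3 by 0.30 and the demethylase gene FTO, which lies near CHD9 on chromosome 16, by 0.18. RBM15B, which recruits the methyltransferase to RNA, rose from 189, 195 and 186 CPM to 274, 271 and 280 CPM. Of 13 genes of small RNA silencing, the route by which hairpins act, 7 rose and none fell, including the Argonaute genes AGO1 (203, 197 and 197 to 263, 268 and 270 CPM) and AGO4 (0.46) and the scaffold gene TNRC6B (0.26). With the DESeq2 Wald test or without hairpin 2 replicate 3, 5 of these 13 genes rose. The interferon list had 5 of 26 higher and 10 lower, with the transducer gene STAT2 at 35.5, 34.99 and 37.6 CPM in shGFP and 26.1, 23.8 and 26.0 CPM with hairpin 2. In those same settings 7 interferon genes were lower. HLA-B, whose reads can map to other HLA genes, fell by 0.57.

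**Figure D4:**
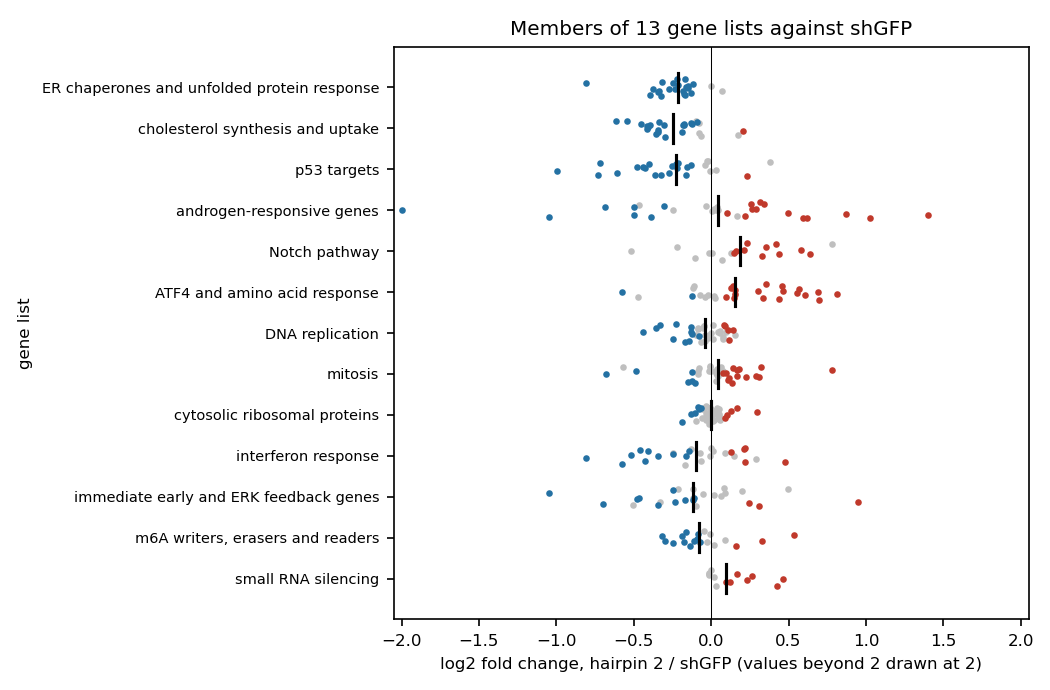
Log2 fold changes of hairpin 2 over shGFP for the tested members of 13 gene lists, 1 point a gene, red for called higher, blue for called lower, grey for not called and a black bar for the list median; 1 value beyond the axis is drawn at its edge. The chaperone points lie almost wholly below 0 (median -0.21), the ATF4 points mostly above (median 0.15), and the ribosomal protein points close to 0 (median -0.004).

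The next question was where hairpin 2 differed from hairpin 1, by a direct contrast of their 3 and 3 libraries in a fit of all 9, where the shGFP libraries add to the filter and the estimated spread but not to the difference. The lists split in this contrast, for which the GC content and length correction was not run. Of 16855 genes tested, 4970 were called (29.5%), 2330 higher (13.8%) and 2640 lower (15.7%) with hairpin 2. Mitosis genes stood above hairpin 1 in 36 of 40 members and below in none, and DNA replication genes in 24 of 38 and 1. Chaperones stood above in 15 of 23 and below in 1, and ATF4 genes above in 18 of 29 and below in 3. Ribosomal protein genes stood below hairpin 1 in 45 of 46 members and above in none. Below it were also 12 of 25 p53 targets, with 3 above, 8 of 18 Notch genes, with none above, and 13 of 29 androgen-responsive genes, with 5 above.

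These lists hold different values against shGFP, given side by side because both comparisons use the same shGFP libraries. The median log2 fold change of mitosis genes was 0.05 with hairpin 2 and -0.18 with hairpin 1, and that of ribosomal protein genes was -0.004 and 0.22. For chaperones it was -0.21 and -0.50, for ATF4 genes 0.15 and -0.04, for p53 targets -0.22 and -0.18, and for Notch genes 0.18 and 0.33. The median direct difference of hairpin 2 minus hairpin 1 was 0.22 for mitosis, 0.19 for chaperones, 0.15 for ATF4 genes, -0.21 for ribosomal protein genes, -0.17 for p53 targets and 0.005 for all genes. TOP2A, which untangles DNA in mitosis, shows the pattern of its list, with log2 fold changes of 0.04 with hairpin 2, which was not called, and -0.43 with hairpin 1, and a direct difference of 0.47 (SE 0.03, edgeR adjusted p = 3.3e-21). After the GC content and length correction TOP2A was called with hairpin 2 (0.15).

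**Figure D5:**
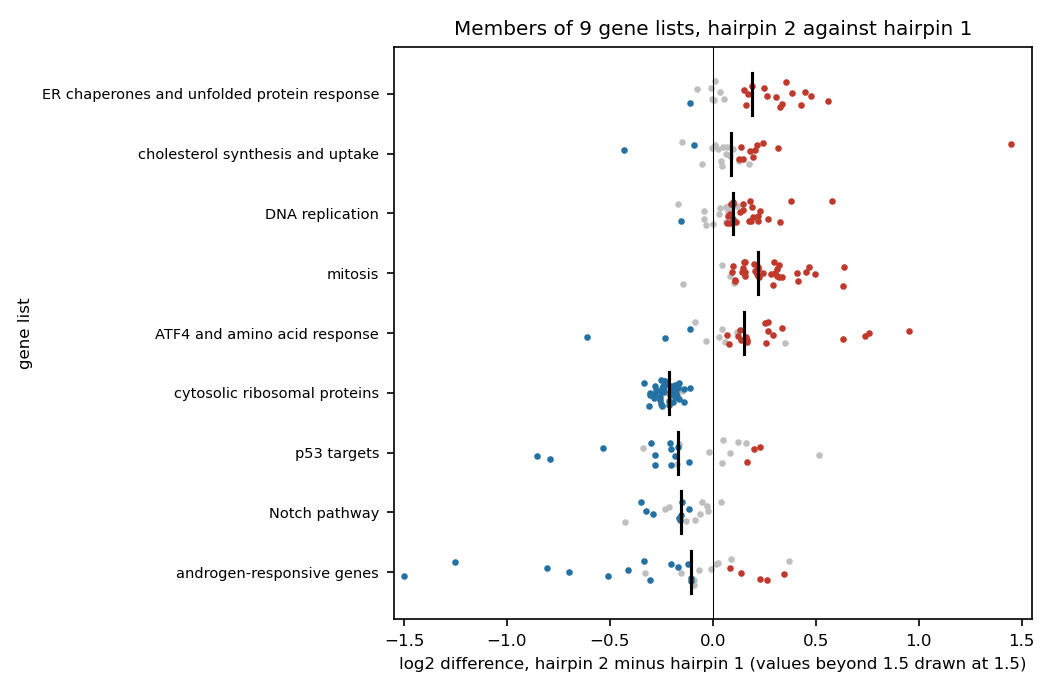
Log2 difference of hairpin 2 minus hairpin 1 for the tested members of 9 gene lists, 1 point a gene, red for called higher with hairpin 2, blue for called lower, grey for not called and a black bar for the list median; 1 value beyond the axis is drawn at its edge. Mitosis genes lie right of 0 (36 of 40 called higher) and ribosomal protein genes left of it (45 of 46 called lower).

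The single genes that went further from shGFP with hairpin 2 than with hairpin 1 were looked at because CHD9 mRNA fell less with hairpin 2. The cause of their further change was not tested. Over 1.5-fold at any level, 560 called genes were higher and 458 lower, and those further from shGFP with hairpin 1 were not counted. At 5 CPM or more and at least 1.5-fold changed, 27 genes called in both comparisons rose further and 27 fell further with hairpin 2. That count passes over clone names, bare identifiers, pseudogenes and noncoding genes with systematic names, such as antisense ones. Their direct differences chose them and are given as a description. Of those that rose, IDH3A, a subunit of the citrate cycle isocitrate dehydrogenase, stood at 53.3, 51.0 and 51.7 CPM in shGFP and at 102, 98.9 and 109 CPM with hairpin 2, a log2 fold change of 0.99 (0.47 with hairpin 1). GABRQ, a GABA receptor subunit gene, rose by 1.28 (0.52), CEND1, of neuronal differentiation, by 1.12 (0.50) and RCN3, a calcium-binding protein gene of the endoplasmic reticulum, by 0.87 (0.26). The long noncoding HELLPAR rose by 0.72 (0.11) and the monocarboxylate carrier gene SLC16A7 by 0.61 (-0.30).

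Of those that fell further, CLU, which encodes the secreted chaperone clusterin, stood at 499, 493 and 493 CPM in shGFP and at 305, 299.9 and 301 CPM with hairpin 2, a log2 fold change of -0.71 (-0.18 with hairpin 1). ADD3, of the membrane skeleton, fell by 1.199 on the log2 scale (-0.64 with hairpin 1), BASP1, a membrane-bound signalling protein gene, by 1.00 (-0.43) and PSCA, the prostate stem cell antigen, by 0.97 (-0.40). PLK2, described above among the p53 targets, fell by 0.73 (-0.20) and BMF, a BH3-only apoptosis gene, by 0.65 (-0.07).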

How the data were processed

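RNA was measured as poly(A)-selected, strand-specific RNA sequencing. The authors deposited raw read counts per gene for 67071 Ensembl gene identifiers. Per the submitters' processing notes, Trim Galore, STAR, DESeq2 and the hg38 build were used, and how reads were counted, whether by strand and on which gene models, is not given in the sources used here, so reads of overlapping genes or near-identical copies may be shared. Gene names and coordinates came from GENCODE v29 (GRCh38).

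The 6 libraries of shGFP and shCHD9_2 were fitted with edgeR 4.0.16 (quasi-likelihood, TMM, genes passing filterByExpr at a minimum count of 10) in R 4.3.3, with Benjamini-Hochberg adjustment over 16579 genes. Values with hairpin 1 and direct differences of the hairpins came from a fit of all 9 libraries. Counting error adds to the spread most at low levels, given by the standard errors. DESeq2 1.42.0, limma 3.58.1, other filters and scalings, a correction for GC content and length, and leaving out each library were alternatives.

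The comparison and the 36 gene lists were chosen with earlier results of these data known, so lists were described by counts and medians without a test. Genes were named by a rule: the CHD genes, the 12 largest called rises and falls of at least 5 CPM without overlap, the 4 members or fewer of a list that had its smallest p-values, the 6 rises and 6 falls furthest beyond hairpin 1, and the 5 largest gains and losses in CPM. Clone names, bare identifiers, pseudogenes and noncoding genes with systematic names were passed over in the ranked parts of this rule, but not within lists. Other list members named were picked after their values were seen. Same-numbered libraries did not deviate together (correlations 0.0049, -0.069 and 0.024), so the main fit has no replicate block. Some genes that the rule selects are not reported here.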

Additional observations from a re-analysis of the deposited data

Results flagged for a closer look

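For 11 named genes the 2 CHD9 hairpins moved to opposite sides of shGFP, both called. The direct contrast of hairpin 2 minus hairpin 1 was called in each as well (edgeR quasi-likelihood test, 3 libraries each). These genes came from 171 that the naming rule selected and from others named after their values were seen. The share of all tested genes that moved this way was not counted, so 11 cannot be read as few or many. In 5 of the 11 genes hairpin 2 was higher. ALDH1L2, of mitochondrial folate metabolism, differed by 0.76 on the log2 scale (0.44 with hairpin 2 and -0.33 with hairpin 1 against shGFP) and the cystine carrier gene SLC7A11 by 0.74 (0.56 and -0.19). The mitotic genes KIF14, CENPF and KIF11 differed by 0.64, 0.45 and 0.42, each higher than shGFP with hairpin 2 and lower with hairpin 1.

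In the other 6 genes hairpin 2 was lower. The p53 targets TP53INP1 and BTG2 differed by -0.85 (-0.27 and 0.58) and -0.79 (-0.33 and 0.46). CYP1A1 differed by -0.73 (-0.36 and 0.36), the histone gene H2BC21 by -0.62 (-0.36 and 0.26), KRT19 by -0.40 (-0.21 and 0.18) and RPL12 by -0.31 (-0.19 and 0.12). The values against shGFP share the same 3 control libraries.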

How the results depend on the processing

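The count of 5875 called genes ranged from 4678 (DESeq2 Wald test) to 6047 (all 9 libraries in the fit) over the other tools, scalings and filters, was 4325 at an adjusted p under 0.01 and 1262 when edgeR tested against a fold of 1.2 (glmTreat), and lay between 4963 and 5451 with 1 library left out. Of the 5875, 4669 were also called by the DESeq2 Wald test and 4690 with the correction for GC content and length. The 373 genes changed over 2-fold became 227 where at least 1 CPM in 3 libraries was required, a filter that removes low genes, and were 362 to 431 with 1 library left out. The 4970 calls between the hairpins ranged from 3991 to 5006, and from 3994 to 4993 with 1 library left out. The correction for GC content and length was not run for these calls. CHD9 kept its direction in every setting run, from -0.29 to -0.20 with 1 library left out, and lost its call without shGFP replicate 3 (-0.20, edgeR adjusted p = 0.061; 0.0053 to 0.026 over the other tools, scalings, filters and corrections). With a replicate block 5755 genes were called, 374 over 2-fold and 4978 between the hairpins, and CHD9 stood at -0.23 (edgeR adjusted p = 0.010); the block changed no call of a named gene. Uncalled genes that changed sign were CANX, at 0.081 with that correction and at -0.028 to 0.035 with 1 library left out (positive without shGFP replicate 3 or hairpin 2 replicate 3), and HES1, at -0.043 to 0.011 with 1 library left out (positive without hairpin 2 replicate 2); the cause was not tested. Of genes under 1 CPM 9.53% were called, with a median standard error of 0.39, so modest changes there were not detectable at this depth.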

Other observations

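Lists not described above had members called both ways with hairpin 2. Of all tested genes 17.4% were called higher and 18.1% lower, and 44.9% of genes at 10 to 100 CPM were called either way. Counts near these shares describe no trait of a list. Fatty acid synthesis genes had 5 of 18 members higher and 3 lower, with the desaturase gene FADS1 at 296 ± 2.37 CPM in shGFP and 240 ± 3.88 with hairpin 2 and the lipogenic factor gene SREBF1 at 113 ± 3.17 and 139 ± 1.69 CPM (SD, n = 3 each). The 3 became 5 in the fit of all 9 libraries. PPAR targets had 4 of 16 higher and 5 lower, with PDK4, which limits pyruvate oxidation, higher by 0.45 on the log2 scale and ANGPTL4, an inhibitor of lipoprotein lipase, lower by 0.32. Glycolysis and hypoxia genes had 8 of 34 higher and 5 lower, the latter 3 without shGFP replicate 2 or hairpin 2 replicate 2, with the hexokinase gene HK2 higher by 0.31 and the oxygen sensor gene EGLN3 lower by 0.76.

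NRF2 targets had 3 of 20 higher (6 after the GC content and length correction) and 8 lower, with the steroid-converting AKR1C3 lower by 0.70 and AKR1C2 by 0.73, close copies that can share reads. Lysosome genes had 2 of 27 higher and 8 lower, with the lysosomal channel gene MCOLN1 lower by 0.50 and LAMP2 higher by 0.26. Osteoblast and bone matrix genes, of interest because CHD9 has been studied in bone-forming cells, had 1 of 7 higher and 4 lower, with BMP2 at 35.7 ± 1.72 CPM in shGFP and 21.6 ± 1.16 with hairpin 2 (SD, n = 3 each). The 4 became 2 with the DESeq2 Wald test and without shGFP replicate 2 or hairpin 2 replicate 3. Polycomb and Trithorax genes had 9 of 24 higher and 5 lower, with the Polycomb genes CBX2 higher by 0.34 and SUZ12 lower by 0.31. Metallothionein and zinc transport genes had 2 of 9 higher and 2 lower, with the zinc importer gene SLC39A10 lower by 0.29. The 2 higher became 1 with the DESeq2 Wald test and without shGFP replicate 2 or 3 or hairpin 2 replicate 2 or 3, and the 2 lower became 1 without hairpin 2 replicate 1 and with the GC content and length correction.

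Among markers of other cell types, neuroendocrine genes had 3 of 10 tested members higher and 2 lower, with the splicing factor gene SRRM4 higher by 0.82, ONECUT2 by 0.29 and CHGB lower, at 0.802 ± 0.149 and 0.281 ± 0.109 CPM (SD, n = 3 each). The 2 lower became 1 with the DESeq2 Wald test, where at least 1 CPM in 3 libraries was required, and without shGFP replicate 3 or hairpin 2 replicate 1 or 3. The 3 higher became 2 without hairpin 2 replicate 1 and 4 without hairpin 2 replicate 3. Basal genes had 2 of 8 higher and 2 lower, with CD44 higher by 0.33 and CAV1 lower by 0.70. Of 4 tested fibroblast markers 2 rose and 1 fell. The collagen gene COL3A1 rose from 1.81 ± 0.0982 to 3.41 ± 0.682 CPM and COL1A1 from 5.07 ± 0.227 to 7.15 ± 0.606 CPM (SD, n = 3 each). LUM, a matrix proteoglycan gene, fell from 0.990 ± 0.350 to 0.0633 ± 0.0162 CPM, which is 1 or 2 counts in each hairpin 2 library, and PDGFRB, at 1.33 ± 0.177 and 1.04 ± 0.482 CPM, was not called (SD, n = 3 each).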
